A study of Mus musculus with 32 samples.

Results

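The Hoxb cluster of the mouse was followed through embryonic kidneys that carried a wild-type or a mutant Enl allele in one of the kidney's progenitor lineages. Its members, taken by name, are the 10 protein-coding genes Hoxb1 to Hoxb9 and Hoxb13. They make up 10 of the 55806 gene identifiers in the count tables, and each of the 4 tables held all 10. ENL, the product of Mllt1, reads acetylated histones through its YEATS domain, and the T1 (insertion) and T3 (small deletion) alleles alter that domain as in Wilms tumour.

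RNA was counted in 32 libraries from embryos on a C57BL/6J background, all heterozygous for the mutant allele where they carried one. In the Six2 groups every embryo had the Six2-TGC transgene (Six2-TGC tg/+), which expresses Cre in nephron progenitors. Controls there were Enl+/+ (Six2-ENL-WT) and mutants EnlT1/+ (Six2-ENL-T1) or EnlT3/+ (Six2-ENL-T3). That transgene also contains Six3, for which aberrant expression has been described, in controls and mutants alike. In the Foxd1 groups every embryo had the Foxd1-GC knock-in (Foxd1GC/+), which expresses Cre in stromal progenitors and inactivates the Foxd1 copy it sits in, with Enl+/+ (Foxd1-ENL-WT) or EnlT1/+ (Foxd1-ENL-T1). Whole kidneys at E18.5 (E for embryonic day) gave 2 libraries for each of the 3 Six2 genotypes and 3 for each of the 2 Foxd1 genotypes. Sorted cells were tdT+, that is, cells in which Cre had switched on the LSL-tdT reporter, so they hold progenitors together with their progeny. They gave 3 libraries for each Six2 genotype at E14.5 and at E18.5, and 4 for each Foxd1 genotype at E18.5. In whole kidneys only part of the cells carry the recombined allele, and in such bulk samples fewer cells of a type and less RNA per cell cannot be told apart.

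HOX proteins are homeodomain transcription factors that give cells their position along the body axis. Within each of the 4 mammalian clusters the genes are activated in the order in which they lie, and the gene at the 3′ end comes on first and most anteriorly. Activation spreads with loss of Polycomb repression and with transcription elongation, in which ENL takes part. The metanephric kidney arises in the trunk, where genes of the middle and 5′ groups are used. Hoxb7 is best known there for its activity in the ureteric bud.

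The members lie on chromosome 11 (GRCm38), all on the forward strand, in the order Hoxb13 (96194316 to 96197447), Hoxb9 (96271457 to 96276595), Hoxb8 (96281905 to 96285315), Hoxb7 (96286623 to 96290162), Hoxb6 (96292476 to 96301569), Hoxb5 (96303336 to 96306121), Hoxb4 (96318267 to 96321638), Hoxb3 (96323326 to 96347930), Hoxb2 (96350525 to 96354012) and Hoxb1 (96365752 to 96368256). The gaps between neighbours from Hoxb1 to Hoxb9 run from 1.31 to 12.2 kb, and a gap of 74.0 kb separates Hoxb9 from Hoxb13. Inside the cluster GENCODE also places the antisense genes Hoxb3os, Gm11536 and Hoxb5os, the lincRNA Gm53 between Hoxb9 and Hoxb13, and the microRNA genes Mir10a (between Hoxb4 and Hoxb5) and Mir196a-1 (beside Hoxb9). Hoxb3 shares 52.9% and Hoxb2 27.3% of its exon length with Hoxb3os, and Hoxb5 shares 3.59% with Hoxb5os. Reads were counted without regard to strand, so in those stretches sense and antisense reads cannot be told apart.

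The RefSeq tables (GRCm38.p6) hold a promoter for 3 of the 10 members, and these are shown since Hoxb1 passed the test in mutant Six2 cells at E14.5 and Hoxb4 and Hoxb8 at E18.5. Each runs from 250 bases before to 50 bases after the gene's start, on the forward strand, 5′ to 3′. Capitals mark matches on either strand to TGATNNAT (the core bound by PBX with HOX proteins), TTTATNG (a CDX-type site) or AGGTCA (a retinoic acid receptor site).
Hoxb1, chr11:96365508-96365807: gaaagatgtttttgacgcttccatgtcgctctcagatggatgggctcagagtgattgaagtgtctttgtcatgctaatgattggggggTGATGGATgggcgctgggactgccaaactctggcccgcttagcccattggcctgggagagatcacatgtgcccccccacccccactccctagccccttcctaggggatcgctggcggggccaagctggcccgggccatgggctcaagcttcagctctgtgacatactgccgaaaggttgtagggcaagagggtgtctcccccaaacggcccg
Hoxb4, chr11:96318017-96318316: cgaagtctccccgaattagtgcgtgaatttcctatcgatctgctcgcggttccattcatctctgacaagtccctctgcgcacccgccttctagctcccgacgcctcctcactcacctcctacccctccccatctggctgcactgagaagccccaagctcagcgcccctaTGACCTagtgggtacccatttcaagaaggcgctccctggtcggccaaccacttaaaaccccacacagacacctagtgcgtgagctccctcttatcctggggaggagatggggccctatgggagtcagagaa
Hoxb8, chr11:96281655-96281954: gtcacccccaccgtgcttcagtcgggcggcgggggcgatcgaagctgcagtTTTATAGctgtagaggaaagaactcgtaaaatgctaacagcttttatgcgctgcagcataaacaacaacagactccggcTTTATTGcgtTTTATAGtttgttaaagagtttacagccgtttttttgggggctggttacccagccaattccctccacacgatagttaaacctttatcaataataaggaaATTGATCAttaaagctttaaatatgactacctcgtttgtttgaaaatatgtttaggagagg
The Hoxb8 window holds 3 CDX-type matches and 1 PBX-HOX match, the Hoxb1 window 1 PBX-HOX match and the Hoxb4 window 1 retinoic acid receptor site. Over 32851 promoters of the same length, 10.9% hold a CDX-type match, 8.85% a PBX-HOX match and 16.3% a retinoic acid receptor site. The observed over expected number of CpG pairs was 0.97 at Hoxb8, a value that 7.66% of promoters reach, 0.593 at Hoxb4 and 0.38 at Hoxb1, against a median of 0.384. The 2 microRNA genes of the cluster are shown by their mature 5p and 3p arms on the forward strand, with the seed (bases 2 to 8) in capitals, since their host transcripts are described with the members.
miR-10a-5p, chr11:96317186-96317208: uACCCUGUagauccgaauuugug
miR-10a-3p, chr11:96317227-96317248: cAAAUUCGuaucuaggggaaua
miR-196a-5p, chr11:96265187-96265208: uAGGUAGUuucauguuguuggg
miR-196a-1-3p, chr11:96265225-96265246: cAACGACAucaaaccaccugau
No 2 of these 4 seeds are the same. The libraries hold polyadenylated RNA, so the counts at Mir10a and Mir196a-1 are of longer transcripts that cross them and not of the mature arms.

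Depth ran from 2557443 to 3508381 counted reads in the sorted Foxd1 libraries and from 67137194 to 157266455 in all others, so a level in sorted Foxd1 cells rests on far fewer reads. Mllt1 itself was counted at between 76.5 and 233 CPM (counts scaled to the depth of the library) outside the sorted Foxd1 cells and between 26.9 and 44.9 CPM there. Its log2 fold change in mutants was between -0.33 (whole Six2-ENL-T3 kidneys) and -0.02 (sorted Six2 cells at E18.5), always short of 1.5-fold. Reads per gene cannot separate its alleles and so do not check the genotype labels. Nephron lineage markers summed to between 4887 and 5464 CPM and stroma markers to between 376 and 636 CPM in sorted Six2-ENL-WT cells at E18.5. In sorted Foxd1-ENL-WT cells the same sums were 488 to 839 and 8240 to 10941 CPM. The labels do not say whether the libraries of a group came from separate embryos, so p-values measure the spread between these libraries.

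Expression across the cluster was uneven, and the order of the members changed between cell populations. Per kilobase of exon, and summed over the 10 members, sorted Six2-ENL-T1 cells at E18.5 stood highest with 461 ± 22.2 CPM per kb (SD, n = 3). Whole Six2-ENL-T3 and Six2-ENL-T1 kidneys followed with 225 ± 1.10 and 201 ± 0.179 (SD, n = 2). Sorted Six2-ENL-WT cells had 136 ± 4.14 at E18.5 (SD, n = 3) and 75.5 ± 1.11 at E14.5. Sorted Foxd1 cells were lowest, with 31.3 ± 3.92 in Foxd1-ENL-WT and 36.1 ± 3.20 in Foxd1-ENL-T1 (SD, n = 4), and the ranges of these 2 groups overlapped. The ranges of the Foxd1-ENL-WT and Foxd1-ENL-T1 whole kidneys overlapped too, and no others that neighbour each other in this order did. The 4 tables were scaled separately, so levels are compared across tables only in this rough way.

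**Figure D1:**
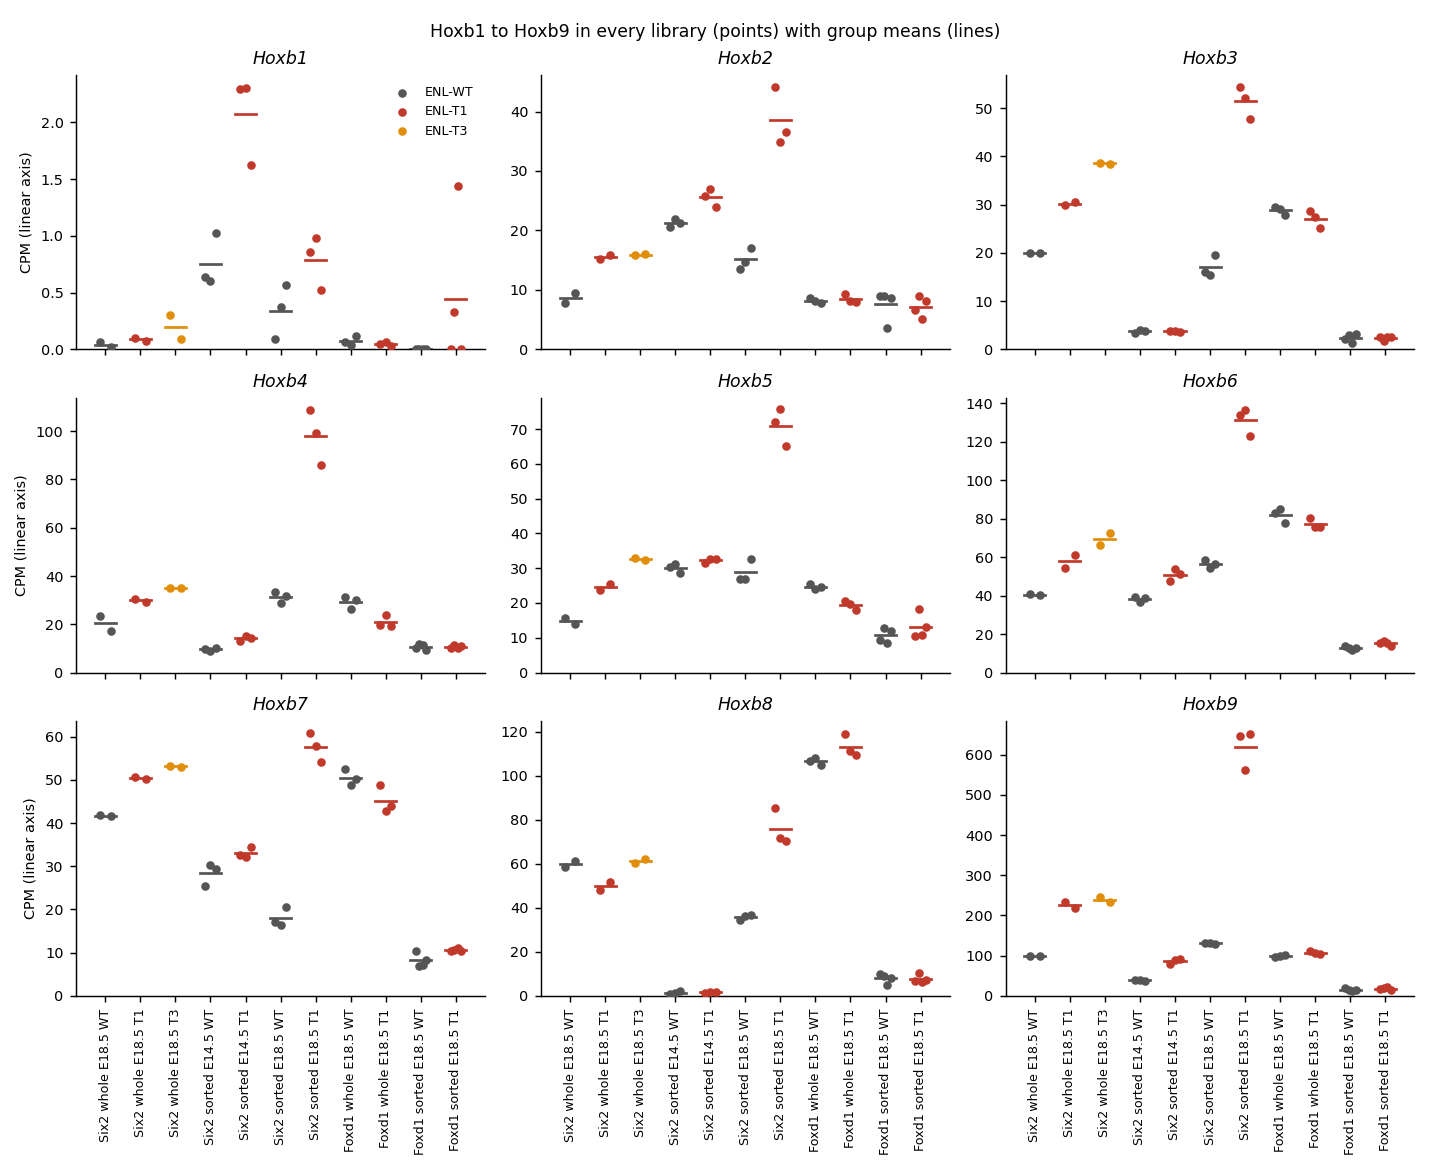
Level of Hoxb1 to Hoxb9 in CPM (linear axes that start at 0, a separate scale for each gene) in every library, with points for libraries, lines for group means and colours for the ENL genotype. The 3 sorted Six2-ENL-T1 libraries of E18.5 stand above the 3 controls for each gene from Hoxb2 to Hoxb9, and Hoxb9 reaches 651 CPM.

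Hoxb9, a member of the group that patterns the thoracic region, led the cluster in sorted Six2 cells at E18.5. It accounted for 37.6% ± 1.44 of the summed level per kb in Six2-ENL-WT and 52.2% ± 3.01 in Six2-ENL-T1 (SD, n = 3). In Six2-ENL-WT cells at E14.5 it was the third, with 15.3 CPM per kb of unshared exon, after Hoxb6 with 19.5 and Hoxb7 with 18.4. Hoxb6 and Hoxb7 overlapped there. In sorted Foxd1-ENL-WT cells Hoxb6, Hoxb9 and Hoxb7 were the first 3, with 6.50, 5.79 and 5.32 CPM per kb, and each overlapped the next. Hoxb8 was among the 3 highest in whole Foxd1 kidneys, where it made up 22.1% ± 0.336 of the cluster in Foxd1-ENL-WT (SD, n = 3), yet only 0.702% ± 0.307 in sorted Six2-ENL-WT cells at E14.5.

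The ends of the cluster were nearly silent. Hoxb13, used in the tail bud and later in the prostate, had 0 counts in all libraries but 2 of sorted Six2-ENL-T1 cells at E18.5, which held 5 counts and 1 count. A count of 0 allows a level of up to 3 counts, which is 0.0191 to 0.0446 CPM in the deep libraries and 0.833 to 1.21 CPM in sorted Foxd1 cells, for counting error only. Hoxb13 never passed the filter on low counts and was not tested. Hoxb1, a gene of the early hindbrain, stayed at or under 2.31 CPM in every library and passed the filter only in the Six2 comparisons.

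Whether ENL-T1 changes the cluster in the nephron lineage was asked first in sorted Six2 cells at E18.5. A gene passed the test, here and for the other genotypes, where its adjusted p was below 0.05 and it changed more than 1.5-fold (edgeR's quasi-likelihood test, Benjamini-Hochberg adjustment over all tested genes). Of the 9 members tested, 8 rose, Hoxb2 to Hoxb9, and none fell. In this comparison 6.14 percent of the 22685 genes tested passed as higher. The median log2 fold change was 1.36 over the members and 0.02 over all genes tested.

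Hoxb9 changed most. Its level was 132, 132 and 130 CPM in the 3 Six2-ENL-WT libraries and 645, 562 and 651 CPM in the 3 Six2-ENL-T1 libraries. No mutant library came near a control. On the log2 scale it rose by 2.24 (adjusted p = 2.84e-10, standard error 0.071), or 4.74-fold with a 95% interval from 4.26 to 5.27.

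Hoxb4, known for its role in blood stem cells, went from 33.4, 28.8 and 31.8 CPM to 109, 99.2 and 86.1 CPM (log2 fold change 1.65, adjusted p = 4.13e-08, standard error 0.092). Hoxb7 went from 17.2, 16.3 and 20.5 CPM to 60.9, 57.9 and 54.1 CPM (1.69, standard error 0.096, adjusted p = 5.49e-08). Hoxb3, a gene of the hindbrain and neck with over 50% of its exon length shared, went from 16.1, 15.4 and 19.5 CPM to 54.4, 52.1 and 47.8 CPM (1.60, standard error 0.100, adjusted p = 1.19e-07). For these 3 genes the groups were far apart, with each lowest mutant library at more than 2 times the highest control.

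The remaining members rose by less. Hoxb2, a hindbrain gene, rose by 1.36, Hoxb5 by 1.31, Hoxb6 by 1.22 and Hoxb8 by 1.09 on the log2 scale, with adjusted p between 3.61e-08 and 1.55e-06. Hoxb8 is an example of the spread: it read 34.5, 36.1 and 36.8 CPM in controls and 85.5, 71.8 and 70.5 CPM in mutants. Hoxb1, at 0.0884 to 0.568 CPM in controls and 0.519 to 0.977 CPM in mutants, overlapped between genotypes and did not pass (log2 fold change 1.22, adjusted p = 0.135, 95% interval 0.08 to 2.36).

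Markers of other cell types moved with the genotype in these sorted cells. Of 11 stroma markers, 7 rose and 2 fell, and their sum was 376 to 636 CPM in controls and 903 to 1040 CPM in mutants. Of 6 red cell markers 5 rose, from a sum of 104 to 210 CPM to one of 1551 to 2274 CPM, and of 5 macrophage markers 3 rose, from 30.5 to 33.8 CPM to 54.7 to 67.3 CPM. No stroma or macrophage marker was at or under 3 counts in any of these libraries. Of 12 nephron lineage markers 9 fell, Six2 among them, and 2 rose (Jag1 and Pax2), and 6 of the 9 ureteric tree markers tested fell. Meis1 is in both the stroma list and the list of HOX cofactors described further on. In the sorted Foxd1 cells, scaled separately and at far lower depth, the stroma marker sum was 8147 to 10941 CPM. Hoxb9 was at 12.1 to 21.9 CPM there over both genotypes. The part of the stroma, red cell, macrophage, nephron and ureteric marker shifts in the Hoxb values of sorted Six2 cells was not tested.

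At E14.5, 2 of the 9 members tested rose in sorted Six2-ENL-T1 cells, Hoxb9 and Hoxb1, and none fell. In this comparison 4.11 percent of the 22387 genes tested passed as higher. Hoxb9 read 40.3, 40.5 and 37.0 CPM in controls and 79.9, 88.1 and 91.3 CPM in mutants (log2 fold change 1.15, adjusted p = 3.96e-05, standard error 0.064). Hoxb1 read 0.639, 0.599 and 1.02 CPM in controls and 2.30, 2.31 and 1.62 CPM in mutants (1.48, standard error 0.27, adjusted p = 0.00901). The groups did not overlap for either gene, and Hoxb1 rests on 82 to 326 reads a library.

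The genes between them stayed within 1.5-fold. Hoxb4 (log2 fold change 0.58, adjusted p = 0.00579) and Hoxb6 (0.42, adjusted p = 0.00385) came nearest, at 1.49-fold and 1.34-fold. Hoxb4 passed (0.60 to 0.63) without control replicate 1, control replicate 3 or mutant replicate 1. Hoxb3 had 0.03 (95% interval -0.23 to 0.30) and Hoxb5 0.12 (-0.02 to 0.26). The stroma marker sum was 515 to 668 CPM in controls and 969 to 1890 CPM in mutants at this stage, with 8 of 11 markers higher and Foxd1 lower, and its part in the Hoxb values was not tested.

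**Figure D2:**
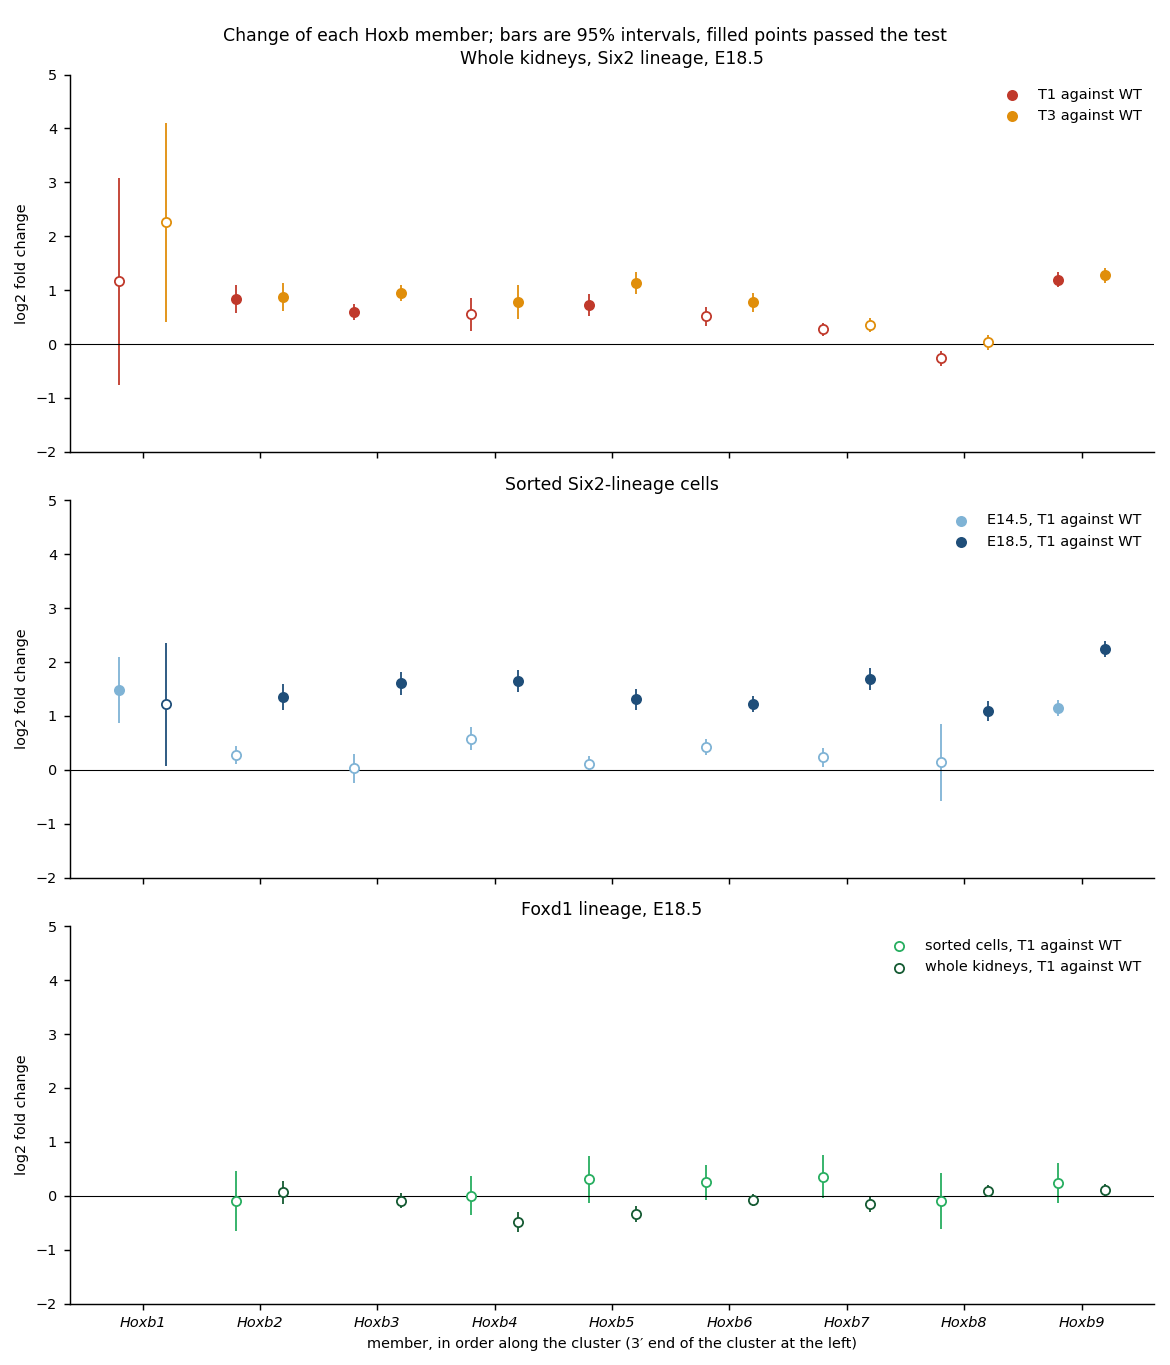
Log2 fold change of each tested member (points) with its 95% interval (bars) in order along the cluster, Hoxb1 at the left, with filled points for members that passed the test. Top, whole Six2 kidneys. Middle, sorted Six2 cells, where the E18.5 values of Hoxb2 to Hoxb9 lie between 1.09 and 2.24. Bottom, the Foxd1 lineage, with no member past the test.

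A direct test asked whether the effect of ENL-T1 differed between the stages (an interaction in the 12 sorted Six2 libraries, adjusted p under 0.05 with no fold threshold). It was larger at E18.5 for 7 of 9 members, Hoxb2 to Hoxb7 and Hoxb9, where 3.94 percent of the 25222 genes tested passed in that direction. The differences were largest for Hoxb3 (1.58 on the log2 scale, standard error 0.14, adjusted p = 1.43e-05) and Hoxb7 (1.46, standard error 0.13, adjusted p = 1.44e-05) and smallest among those 7 for Hoxb6 (0.81). Hoxb8 had 0.97 (adjusted p = 0.065) and Hoxb1 -0.25 (95% interval -1.65 to 1.16). E14.5 cells were released with trypsin and E18.5 cells with collagenase, so stage and method cannot be told apart.

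The same 12 libraries also hold the change of the cluster from E14.5 to E18.5 in control cells of this lineage, again with stage and release method together. Between E14.5 and E18.5, Hoxb3, Hoxb4, Hoxb8 and Hoxb9 rose in Six2-ENL-WT cells, 4 of 9 members, where 24.8 percent of genes passed as higher (adjusted p below 0.01 and more than a 2-fold change). None of the members passed as lower. Cell type markers shifted between the stages too. Of 12 nephron lineage markers 8 rose and 2 fell (Six2 and Eya1), and of 11 stroma markers 2 rose and 2 fell. Of 9 ureteric tree markers tested 5 rose, as did 5 of 6 endothelium markers, and none of either fell. The part of these shifts in the Hoxb values was not tested.

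Hoxb8, known from work on myeloid progenitors and grooming behaviour, stood out. It read 0.967, 1.13 and 2.102 CPM at E14.5 and 34.5, 36.1 and 36.8 CPM at E18.5, which is 4.68 on the log2 scale (adjusted p = 1.59e-10, standard error 0.23). Its neighbours on either side, Hoxb7 and Hoxb9, were at 25.5 to 30.3 and 37.0 to 40.5 CPM at E14.5, so the gene between them was low while both were well expressed. Hoxb3 rose by 2.20, Hoxb9 by 1.74 and Hoxb4 by 1.70 on the log2 scale. In the other direction, Hoxb7 read 25.5, 30.3 and 29.4 CPM at E14.5 and 17.2, 16.3 and 20.5 CPM at E18.5, which did not reach the fold threshold (-0.66, adjusted p = 1.64e-05). Hoxb2 had -0.49, Hoxb5 -0.07 and Hoxb6 0.56.

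In Six2-ENL-T1 cells 6 of 9 members rose over the same interval, the same 4 with Hoxb5 and Hoxb6 in addition, where 24.4 percent of genes passed as higher. Hoxb3 rose by 3.77, from 3.68 to 3.81 CPM to 47.8 to 54.4 CPM. Hoxb9 rose by 2.84, Hoxb4 by 2.78, Hoxb6 by 1.37 and Hoxb5 by 1.14. Hoxb1 had -1.40 (adjusted p = 0.0121), and passed as lower, at -1.42, without Six2-ENL-WT replicate 1 or replicate 3 of E18.5. The sign of Hoxb7 turned, with 0.80 (adjusted p = 1.88e-06, short of 2-fold) where controls had -0.66. The stage by genotype interaction is the test of that contrast.

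**Figure D3:**
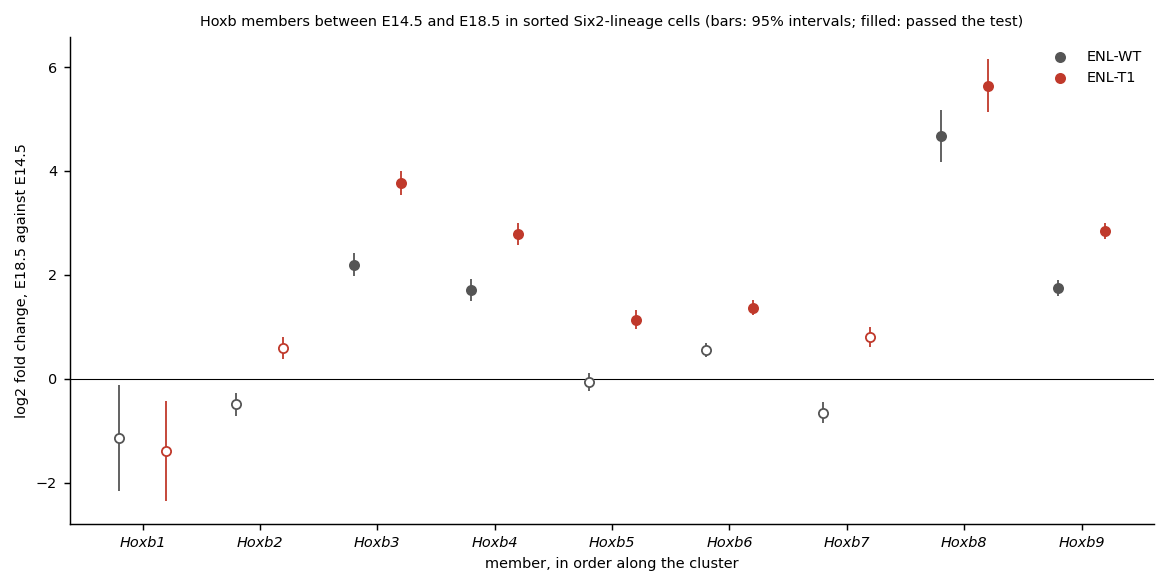
Log2 fold change from E14.5 to E18.5 of each tested member in sorted Six2-ENL-WT (grey) and Six2-ENL-T1 (red) cells, with 95% intervals and filled points for members that passed. Hoxb8 has the largest change in both genotypes (4.68 and 5.64), and the red point is above the grey one for each member from Hoxb2 to Hoxb9.

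Whole Six2 kidneys at E18.5 showed a smaller rise and allowed the 2 mutant alleles to be set side by side. In Six2-ENL-T1, 4 of 9 members rose (Hoxb2, Hoxb3, Hoxb5 and Hoxb9), where 2.88 percent of the 23931 genes tested passed as higher. In Six2-ENL-T3, 6 rose (Hoxb4 and Hoxb6 as well), where 4.34 percent passed as higher. Both comparisons share the same 2 control libraries.

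Hoxb9 read 99.8 and 97.9 CPM in the controls. Six2-ENL-T1 kidneys had 233 and 219 CPM and Six2-ENL-T3 kidneys 245 and 232 CPM. Both mutant genotypes were above 2 times the controls (log2 fold changes 1.19 and 1.27, standard error 0.062 in both, adjusted p = 4.82e-05 and 3.37e-05). Hoxb5, a gene of the trunk, read 15.8 and 14.02 CPM, then 23.8 and 25.5, then 33.0 and 32.3 CPM. Its log2 fold changes were 0.72 (adjusted p = 0.00142) and 1.13 (adjusted p = 0.000179). Hoxb2 had 0.84 and 0.87, Hoxb3 0.60 and 0.95, and Hoxb4 0.55 and 0.78, the value of Hoxb4 in Six2-ENL-T1 falling short of 1.5-fold (0.80, and past it, without control replicate 1).

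Hoxb6, Hoxb7 and Hoxb8 fell short of 1.5-fold in Six2-ENL-T1 kidneys. Control kidneys had 40.9 and 40.1 CPM of Hoxb6, Six2-ENL-T1 kidneys 54.4 and 61.2 CPM, and Six2-ENL-T3 kidneys 66.1 and 72.5 CPM. Its log2 fold changes were 0.51 (adjusted p = 0.00403, and 0.62, past 1.5-fold, without Six2-ENL-T1 replicate 1) and 0.78 (adjusted p = 0.000547). Hoxb7 read 41.8 and 41.6 CPM in controls and 50.2 to 53.3 CPM in the mutants (log2 fold changes 0.27 and 0.35, short of 1.5-fold). Hoxb8 read 58.3 and 61.3 CPM in controls. Six2-ENL-T1 kidneys had 48.0 and 51.6 CPM, below both, and Six2-ENL-T3 kidneys 60.1 and 61.95 CPM, overlapping them. Its log2 fold change was -0.26 in Six2-ENL-T1 (adjusted p = 0.0277, short of 1.5-fold, and 0.0157 to 0.314 over the alternatives) and 0.03 in Six2-ENL-T3 (95% interval -0.12 to 0.17). The ureteric tree marker sum was 802 to 958 CPM in controls, 613 to 621 in Six2-ENL-T1 and 554 to 615 in Six2-ENL-T3, and the nephron lineage sum 3446 to 3529 against 1236 to 1353 and 1164 to 1247 CPM. Of 5 macrophage markers 4 rose with each allele, from a sum of 80.2 to 83.7 CPM to one of 107 to 116 CPM in Six2-ENL-T1 and 109.8 to 122 CPM in Six2-ENL-T3. The part of these shifts in the Hoxb values was not tested.

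The alleles were compared directly as Six2-ENL-T3 against Six2-ENL-T1. No member passed by edgeR's quasi-likelihood test, its exact test or DESeq2, where 0.00418 percent of all genes passed by the first. By the exact test 221 genes passed and by DESeq2 71. Under at least 1 alternative Hoxb3, Hoxb5 and Hoxb8 had an adjusted p under 0.05 and failed only the 1.5-fold threshold. By the quasi-likelihood test 4 members (Hoxb3, Hoxb5, Hoxb6 and Hoxb8) had an unadjusted p under 0.05, all higher in Six2-ENL-T3. The share of all genes at that cut was not counted. The 95% intervals of the difference were 0.20 to 0.50 on the log2 scale for Hoxb3, 0.21 to 0.61 for Hoxb5 and 0.15 to 0.44 for Hoxb8, and -0.06 to 0.22 for Hoxb9. One control library, replicate 2, had a skeletal muscle marker sum of 42.6 CPM against 2.37 CPM in the other. Without it the counts were 4, 6 and 0 in the 3 comparisons.

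In the stromal lineage the cluster gave no call. In sorted Foxd1-ENL-T1 cells none of the 7 members tested passed by edgeR's quasi-likelihood test, its exact test or DESeq2, and none had an unadjusted p under 0.05, where 5.81 percent of the 12717 genes tested passed in either direction. Hoxb9 read 18.6, 13.7, 12.1 and 15.2 CPM in Foxd1-ENL-WT and 16.7, 19.0, 21.9 and 13.5 CPM in Foxd1-ENL-T1, and the groups overlapped (log2 fold change 0.23, 95% interval -0.14 to 0.61). Hoxb7 came nearest to a change, from 10.3, 7.00, 7.24 and 8.32 CPM to 10.4, 10.6, 11.2 and 10.3 CPM (0.36, adjusted p = 0.286).

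These values rest on few reads, from 3 for Hoxb3 to 67 for Hoxb9 in a library. The upper ends of the 95% intervals were between 0.37 for Hoxb4 and 0.76 for Hoxb7 on the log2 scale. They lie below the lowest fold change of a called member in sorted Six2 cells at E18.5 (1.09). Hoxb3 and Hoxb1 fell under the filter, with Hoxb1 at 0 in all 4 control libraries and at 0, 1, 4 and 0 counts in the mutants.

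A direct test of the difference between lineages (14 sorted libraries of E18.5) passed for all 8 members tested, Hoxb2 to Hoxb9, each with a smaller effect of ENL-T1 in Foxd1 cells. In that direction 7.63 percent of the 14869 genes tested passed. The difference was -2.03 for Hoxb9 (standard error 0.18, adjusted p = 6.29e-08), -1.69 for Hoxb3 and -0.99 for Hoxb6, the smallest. Hoxb3 passed the filter on low counts here only through the Six2 libraries. It had 3 to 10 counts in a Foxd1-ENL-WT and 5 to 8 in a Foxd1-ENL-T1 library, so its value is near the floor on that side. The lineages were sequenced with different read lengths and depths, so lineage and sequencing cannot be told apart. Genotypes were compared within each lineage, and which libraries shared a run is not given in the sources used here.

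Whole Foxd1 kidneys gave no call either. None of 8 members passed by any of the same 3 tests, where 10.2 percent of the 20145 genes tested did by edgeR's quasi-likelihood test. With no fold threshold 2 members passed that test, as did 6732 of all genes tested. Hoxb4 read 31.5, 26.4 and 30.2 CPM in Foxd1-ENL-WT and 19.9, 23.7 and 19.2 CPM in Foxd1-ENL-T1. Every mutant library was below every control, at a log2 fold change of -0.49 (adjusted p = 0.000949) that fell short of 1.5-fold. Hoxb5 likewise read 25.5, 24.0 and 24.6 CPM against 20.7, 19.7 and 18.0 CPM (-0.34, adjusted p = 0.00205). Hoxb8 and Hoxb9 had 0.09 and 0.11. Replicate 1 of Foxd1-ENL-T1 had a skeletal muscle marker sum of 86.5 CPM, and without it Hoxb4 had -0.45 and Hoxb5 -0.39. The ureteric tree marker sum was 947 to 1117 CPM in controls and 652 to 706 CPM in mutants here too. The nephron lineage marker sum was 3729 to 3777 CPM in controls and 2560 to 2990 CPM in mutants, with 2 of 12 markers higher and 2 lower. The part of both in the Hoxb values was not tested.

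The changes were set beside position along the cluster, with no test. Spearman's rho between a member's paralogue number and its log2 fold change was 0.27 in sorted Six2 cells at E18.5 and -0.08 at E14.5 (9 members each). It was -0.35 and -0.42 in whole kidneys of Six2-ENL-T1 and of Six2-ENL-T3 (9 members), 0.11 in sorted Foxd1 cells (7) and 0.45 in whole Foxd1 kidneys (8). In development it was 0.48 in controls and 0.57 in mutants (9 members each). These values are descriptions over few neighbouring genes that share libraries and antisense transcripts. The profile was jagged. Among Hoxb2 to Hoxb9, Hoxb9 had the largest log2 fold change in each of the 4 Six2 comparisons of mutants with controls, and its neighbour Hoxb8 the smallest in 3 of them.

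Noncoding transcripts of the cluster rose in some comparisons where the coding genes beside them did not pass. Hoxb5os, antisense to Hoxb5 (696 bases of exon, of which 14.4% is shared), read 23.6, 22.5 and 24.98 CPM in sorted Six2-ENL-WT cells at E14.5 and 93.6, 99.3 and 97.5 CPM in the mutant cells. Its log2 fold change there was 2.05 (adjusted p = 1.1e-06, standard error 0.057), while that of Hoxb5 was 0.12. It also rose at E18.5 (2.45) and in whole kidneys of Six2-ENL-T1 and of Six2-ENL-T3 (2.05 and 2.15).

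In sorted Foxd1 cells, where no coding member passed, Hoxb5os rose. It read 3.89, 7.00, 4.02 and 8.68 CPM in Foxd1-ENL-WT and 6.30, 16.3, 12.2 and 18.1 CPM in Foxd1-ENL-T1, with 10 to 56 reads a library (log2 fold change 1.18, standard error 0.31, adjusted p = 0.0171). One mutant library lay inside the control range. Of 5 macrophage markers 4 rose in this comparison, from a sum of 63.3 to 152 CPM to one of 151 to 212 CPM, and the ureteric tree marker sum was 96.9 to 155 CPM in controls and 58.3 to 65.2 CPM in mutants. Their part in the Hoxb5os values was not tested. In whole Foxd1 kidneys it had -0.25 (adjusted p = 0.0136, short of 1.5-fold).

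Gm53, on the 5′ side of Hoxb9, rose in each Six2 genotype comparison against controls, by 0.92 at E14.5, 1.99 at E18.5, 0.74 in Six2-ENL-T1 kidneys and 1.12 in Six2-ENL-T3 kidneys. It read 31.7, 27.6 and 29.8 CPM in controls and 113, 123 and 117 CPM in mutants in sorted cells at E18.5. In sorted Foxd1 cells it had -0.41 (95% interval -0.998 to 0.18).

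Transcripts over the microRNA genes were seen in some populations and hardly in others. Mir10a had at most 1 count in any sorted Six2 library of E14.5, and 20 to 29 counts in Six2-ENL-WT and 97 to 181 in mutants at E18.5 (log2 fold change 2.28, adjusted p = 0.000111, standard error 0.30). Mir196a-1 had at most 5 counts at E14.5, 92 to 151 in Six2-ENL-WT at E18.5 and 294 to 377 in mutants (1.41, adjusted p = 0.000404, standard error 0.22). These are the genes of the miR-10a and miR-196a arms printed at the start. Hoxb3os rose by 0.89 in the same comparison and Gm11536, named after its values were seen, by 1.84.

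**Figure D4:**
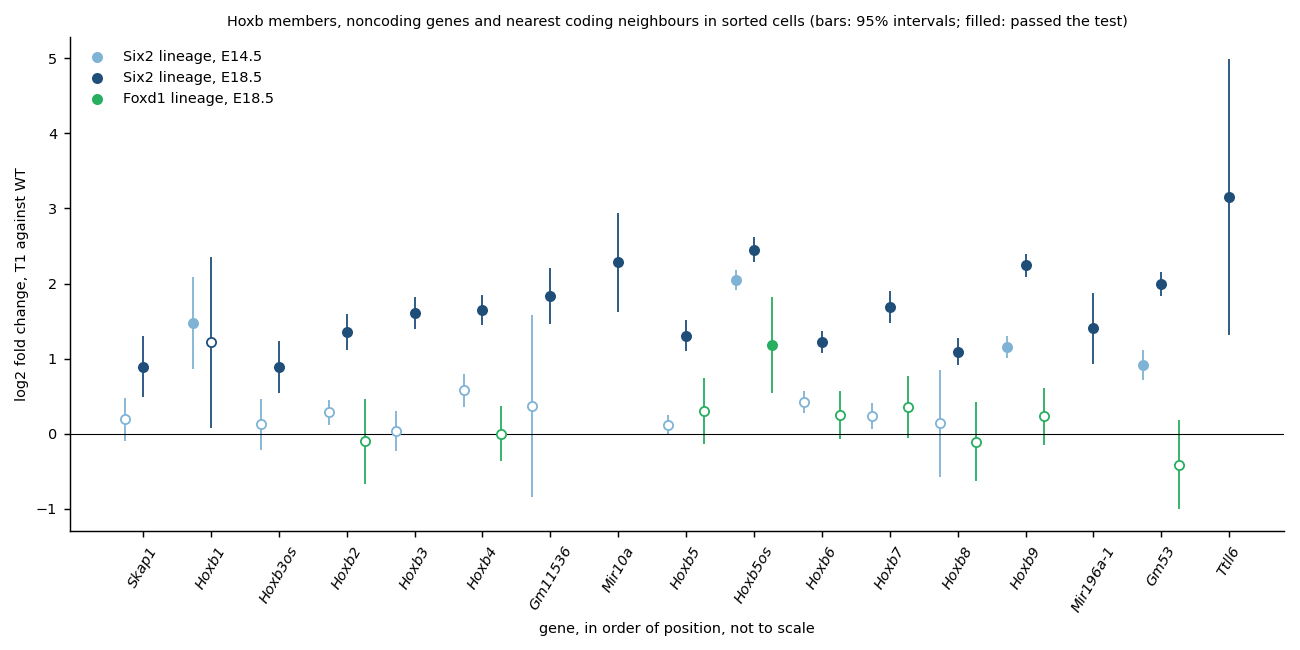
Log2 fold change (Six2-ENL-T1 or Foxd1-ENL-T1 against controls) of the Hoxb members, noncoding genes of the cluster and nearest coding neighbours in sorted cells, with 95% intervals and filled points for genes that passed. Genes are in order of position and not to scale, except that Gm11536, drawn after Hoxb4, lies within Hoxb3. At E14.5 Hoxb1, Hoxb5os, Hoxb9 and Gm53 are filled, and in the Foxd1 lineage Hoxb5os alone. A gene below the filter on low counts has no point.

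The genes beside the cluster were read against the 6.14 percent of all genes that passed as higher in sorted Six2 cells at E18.5. Of 8 coding neighbours on the Hoxb1 side, all tested there, 1 rose, Skap1, an adaptor of T cell signalling and the nearest. Of 6 tested on the Hoxb13 side, 2 rose, Igf2bp1 and Ttll6. Median log2 fold changes were 0.03 and 0.01, against 1.36 in the cluster. Skap1 read 5.25, 4.40 and 3.31 CPM in controls and 9.995, 6.99 and 7.04 CPM in mutants (log2 fold change 0.90, adjusted p = 0.00418), and it rose by 1.23 and 1.18 in whole kidneys of Six2-ENL-T1 and of Six2-ENL-T3. Ttll6, a tubulin glutamylase, is the nearest coding gene beyond Hoxb13 and had 0, 6 and 1 counts in controls and 27, 27 and 16 in mutants. It passed the filter on low counts only through the mutant libraries, where it was higher. Its call depends on that filter and is given as a description only. Igf2bp1, an RNA-binding protein of fetal tissue, rose by 0.86. At E14.5 only Copz2 of the 12 neighbours tested passed (0.79). In sorted Foxd1 cells none of 10 did by edgeR's quasi-likelihood test. There 3 had an unadjusted p under 0.05, and the share of all genes at that cut was not counted.

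Genes that act with or upstream of HOX proteins were followed as lists. Of the 9 TALE cofactors, which bind DNA together with HOX proteins, 1 rose (Meis1, 1.26) and 1 fell (Pknox2, -0.75) in sorted Six2 cells at E18.5, and Meis1 rose by 0.64 at E14.5. In sorted Foxd1 cells Meis2 rose by 0.85 on the log2 scale. Of 12 Cdx and retinoic acid genes, 9 were tested at E18.5 in the Six2 lineage. Rarg, a retinoic acid receptor, rose by 0.91, and the retinoic acid synthases Aldh1a1 and Aldh1a2 fell by 3.03 and 0.94.

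The paralogues in the other clusters were measured in the same libraries. In sorted Six2-ENL-T1 cells at E18.5 all 26 other Hox genes tested rose, with a median of 1.84. In sorted Foxd1-ENL-T1 cells 16 of 21 rose, with a median of 1.10, against 0 of 7 and 0.23 in Hoxb, and 3.63 percent of all genes passed as higher. Of the Hoxa genes 8 of 8 passed there, of Hoxc 6 of 7 and of Hoxd 2 of 6. The Hoxd median was 0.12, below that of Hoxb, and differences between clusters were not tested. For the group 9 paralogues, Hoxa9 had 1.80 (adjusted p = 1.95e-10), Hoxc9 1.08 (adjusted p = 3.14e-06) and Hoxd9 -0.10, beside 0.23 for Hoxb9. In the group 5 paralogues Hoxa5 had 3.09 and Hoxc5 0.29, beside 0.30 for Hoxb5.

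The summed Hoxa level was 133 ± 3.53 CPM per kb in sorted Foxd1-ENL-WT cells and 317 ± 11.2 in Foxd1-ENL-T1 (SD, n = 4), and that of Hoxc 86.7 ± 1.86 and 181 ± 13.1. Hoxb had 31.3 and 36.1, the lowest of the 4 clusters in both. In sorted Six2-ENL-WT cells at E18.5 Hoxb was the highest of the 4, at 136 ± 4.14 against 124 ± 16.2 for Hoxc and 87.0 ± 10.3 for Hoxa (SD, n = 3), although the order of Hoxb and Hoxc is within the spread between libraries.

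**Figure D5:**
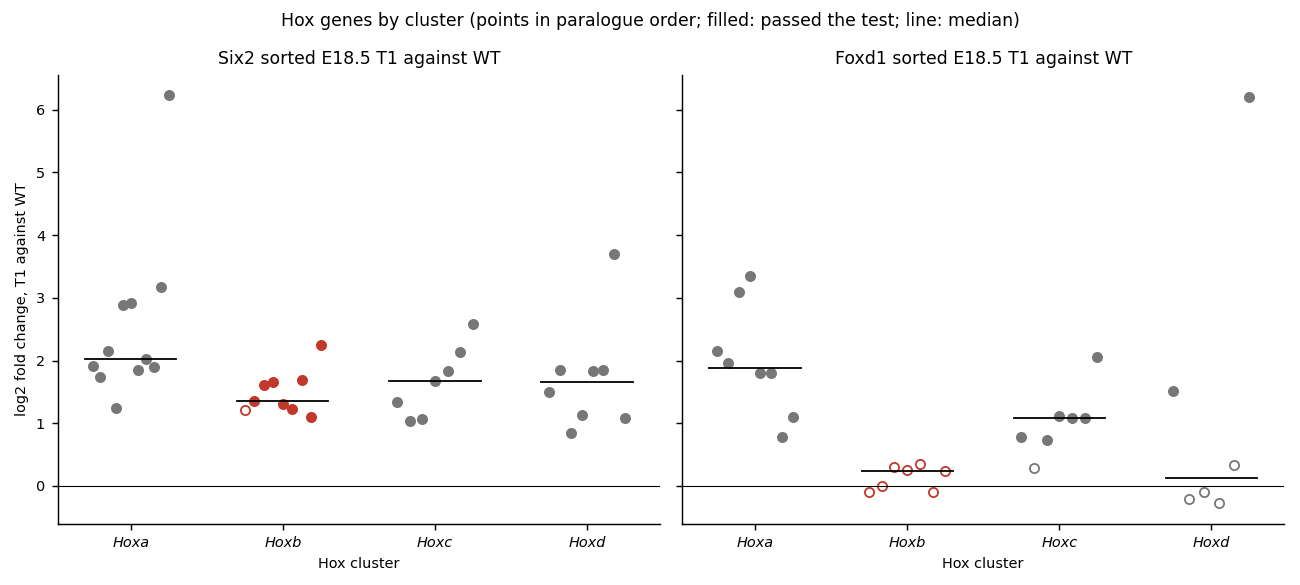
Log2 fold change of every Hox gene tested in sorted cells at E18.5, by cluster, points in paralogue order within a cluster, with filled points for genes that passed and lines for medians. In the Six2 lineage (left) the Hoxb points lie at or above 1.09, and in the Foxd1 lineage (right) at or below 0.36.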

How the data were processed

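The authors made libraries from polyadenylated RNA (a stranded kit for whole kidneys, SMART-Seq v4 for sorted cells). HISAT2 placed paired reads on mm10 and HTSeq counted them by gene, ignoring strand. The deposited values are raw counts per gene, not normalized or filtered by the authors as far as the values show. Genes were named through GENCODE vM21. Its release may differ from the one behind the counts, which is not given in the sources used here.

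Counts were tested in R 4.3.3 with edgeR 4.0.16 (filterByExpr with a minimum count of 10 and total of 15, TMM factors, glmQLFit and glmQLFTest), with p-values adjusted over all tested genes by the Benjamini-Hochberg method. Whole Six2 kidneys were fitted together, sorted Six2 stages together for development and the stage interaction, and the other pairs alone. A level in CPM uses the TMM-scaled library size, and 95% intervals use the fit's standard error. DESeq2 1.42.0, other scalings and filters, a replicate block and leaving out each library were alternatives. Calls were checked on simulated counts. Depth sets counting error only, so a count of 0 was read as at most 3 counts.

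The members and gene lists were chosen with earlier results of these data known. Each member that passed is named in its comparison, while those that did not pass are not all given. From other lists up to 2 called genes a direction are named, with the noncoding genes of the cluster, Skap1, Ttll6 and same-number paralogues. Some results of the gene lists are not reported here.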

Additional observations from a re-analysis of the deposited data

Results flagged for a closer look

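In the sorted Foxd1 libraries, in groups of 4, 1 library lay far from the other 3 for 2 of the 19 sets of a gene (a member or Mllt1) and group examined. Hoxb3 read 1.66 CPM in Foxd1-ENL-T1 replicate 2 and Hoxb2 read 3.62 CPM in Foxd1-ENL-WT replicate 3, each the lowest of its group. Chance alone marks about 1 such group in 20.

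The effect of ENL-T1 in sorted Six2 cells differed between stages by a test of the difference itself, and was larger at E18.5 on the log2 scale by 1.08 for Hoxb2, 1.58 for Hoxb3, 1.08 for Hoxb4, 1.20 for Hoxb5, 0.81 for Hoxb6, 1.46 for Hoxb7 and 1.10 for Hoxb9 (edgeR's quasi-likelihood test, adjusted p from 1.08e-05 to 0.00041). Between lineages at E18.5 the effect in Foxd1 cells minus that in Six2 cells was -1.48 for Hoxb2, -1.69 for Hoxb3, -1.67 for Hoxb4, -1.02 for Hoxb5, -0.99 for Hoxb6, -1.35 for Hoxb7, -1.22 for Hoxb8 and -2.03 for Hoxb9 (adjusted p from 6.29e-08 to 0.00318). Hoxb3 was under the filter on low counts in the Foxd1 libraries alone and entered this test through the Six2 libraries.

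In whole kidneys 3 members did not overlap between genotypes and lay on opposite sides of the controls in the 2 lineages. The difference was not tested. The share of all genes that do the same in groups of 2 and 3 libraries was not counted. The log2 fold changes in Six2-ENL-T1 and Foxd1-ENL-T1 kidneys were 0.55 and -0.49 for Hoxb4, 0.72 and -0.34 for Hoxb5, and -0.26 and 0.0865 for Hoxb8. The 95% interval of Hoxb8 in Foxd1-ENL-T1 kidneys, -0.02 to 0.20, holds no change.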

How the results depend on the processing

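Of 191 recounts of called members over the 11 comparisons, 6 moved past 1.5 times the reported count. With no fold threshold the count was 8 in whole Six2-ENL-T1 kidneys, where 3393 of 23931 genes passed. It was 5 in sorted Six2 cells at E14.5 (2884 of 22387 genes) and 2 in whole Foxd1 kidneys (6732 of 20145 genes). In control development it was 7, and the share of all genes at that rule is not given here. With a fold change over 2 it was 1 in whole Six2-ENL-T1 and 2 in whole Six2-ENL-T3 kidneys, where 1120 and 1344 of 23931 genes passed. These shifts follow from the threshold itself. Leaving out each library in turn gave 4 to 5 called members in whole Six2-ENL-T1 kidneys, 2 to 3 in sorted Six2 cells at E14.5, 6 to 7 in mutant development and 7 to 8 in the stage interaction, and the reported count in the other 7 comparisons. With the fold threshold as reported, no called member lost its call under the alternatives run, and 19 values passed that had not. Besides Hoxb4 at E14.5 and in whole Six2-ENL-T1 kidneys, these were of Hoxb1 in mutant development, at E18.5 and in whole Six2-ENL-T3 kidneys, of Hoxb8 in the stage interaction (1.17 without E14.5 control replicate 1) and of Hoxb6 in whole Six2-ENL-T1 kidneys (0.62 without mutant replicate 1). Position along the cluster gave the same picture under both other scalings.

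Directions turned for members that had not passed, and the cause was not tested. Hoxb5 in control development read 0.0666 with DESeq2, 0.0668 with RLE size factors, 0.0582 with genes over 1 CPM, 0.00912 with the exact test and 0.00919 with the fit of 2 groups. Hoxb4 in sorted Foxd1 cells read -0.000976 with library size only, -0.0181 with no low-count filter and -0.00512 with genes over 1 CPM. Without single libraries the ranges that crossed 0 were -0.0441 to 0.0539 (Hoxb4), -0.29 to 0.0271 (Hoxb8) and -0.29 to 0.0308 (Hoxb2) in sorted Foxd1 cells, -0.0105 to 0.11 (Hoxb2) in whole Foxd1 kidneys, -0.0163 to 0.0827 (Hoxb3) and -0.0691 to 0.55 (Hoxb8) at E14.5, -0.12 to 0.0184 (Hoxb5) in control development, -0.76 to 0.26 (Hoxb1) in the stage interaction, -0.00536 to 0.0855 (Hoxb8) in whole Six2-ENL-T3 kidneys, and -0.0182 to 0.0691 (Hoxb2) and -0.0196 to 1.72 (Hoxb1) for Six2-ENL-T3 against Six2-ENL-T1.

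The labels do not say whether replicate numbers pair the samples. Deviations of equally numbered libraries correlated between -0.079 and 0.139. Unequally numbered libraries were not compared, so these values cannot decide it. With the replicate number as a block the counts of called members were 4, 6, 0, 2, 8, 0, 0, 4, 6, 7 and 8, each equal to the count without it. Over all genes, counts moved past 1.5 times in 24 of 191 recounts. With no fold threshold they were 1363 in sorted and 6732 in whole Foxd1 samples, 2884 and 4603 in sorted Six2 cells at E14.5 and E18.5, and 3393 and 4189 in whole kidneys of Six2-ENL-T1 and of Six2-ENL-T3. With a fold change over 2 they were 347, 1084, 846, 1682, 1120 and 1344 in the same order. For Six2-ENL-T3 against Six2-ENL-T1 the 1 gene became 71 with DESeq2, 300 with no low-count filter, 221 with the exact test and 14 with the fit of 2 groups. Leaving out a library moved it to between 0 and 16, whole Six2-ENL-T1 kidneys to as few as 1163 and the stage interaction to 1327. The sorted Foxd1 libraries, where 3 counts are about 1 CPM, limit what can be seen of Hoxb1, Hoxb3 and Hoxb13 there.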
